A study of Mus musculus with 6 samples.

Results

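The transcripts described here are those of 31 genes that make, move, sense and esterify cholesterol, measured in the livers of Fah-deficient mice. The genes were taken as a list: 18 enzymes of cholesterol synthesis, 4 genes of the sterol-sensing control of SREBP, 6 genes of sterol uptake and transport, and 3 genes of esterification. Of the 31 genes, 27 had a probe set with a single gene symbol on the array, out of 22180 genes so covered. Acat2, Soat1 and Soat2 were not analysed here, and neither was Idi1, whose probe set carries a second gene symbol. Where a gene had several probe sets, the one with the highest mean signal over all 6 arrays stands for it.

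Both groups were male mice of the C57Bl/6J background with a point mutation in Fah (FAH5981SB), the gene of the last enzyme of tyrosine breakdown, which leaves an unstable, truncated protein. In the withdrawal group (3 arrays), mice went without NTBC for 7 days from the age of 11 weeks. In the continuous group (3 arrays) the drug stayed in the drinking water at 8 mg/l. NTBC, or nitisinone, blocks the tyrosine pathway upstream of the missing enzyme. All livers came from mice of 12 weeks, all mice ate chow low in tyrosine and phenylalanine, and the labels list 3% dextrose in the water for every sample. There was no group with an intact Fah gene. The labels list biological replicates but identify no animal, and every p-value below reflects the spread among these 6 arrays alone. Fasting and the time of day at collection are not given in the sources used here.

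Hepatocytes make cholesterol from acetyl-CoA. The mevalonate pathway builds farnesyl diphosphate, of which a pair of molecules is joined to squalene, and a chain of ring-closing, demethylating, reducing and isomerising steps then yields cholesterol. When sterol in the endoplasmic reticulum falls, SCAP escorts the membrane-bound transcription factor SREBP2 to the Golgi for cleavage, and SREBP2 switches on nearly the whole pathway. When sterol is plentiful, INSIG proteins hold SCAP back. Cells also take up cholesterol from lipoproteins, export it from lysosomes through NPC1 and NPC2, and store it as esters.

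Signals are log2 values of the deposited normalized intensities, given for replicates 1 to 3 of each group in that order. Changes are withdrawal minus continuous on the log2 scale, with limma's standard error (SE), and adjusted p-values cover all 34472 probe sets. Of the 27 measured genes, 5 fell, 1 rose and 21 did not pass the adjusted p threshold of 0.05. That is 18.5% lower and 3.70% higher, where 3.39% of all 22180 genes were lower and 7.58% higher (11.0% in all). Over all probe sets, 3.20% were lower and 6.21% higher (9.40% in all). With each array centred on its median, the sterol counts were 3 lower and 1 higher, and with quantile normalization 7 lower and 0 higher by limma (4 higher at an unadjusted p under 0.05). The median change was 0.01 over the 27 genes and -0.06 over all genes. All 5 falls and the single rise lay in synthesis or sterol transport. The list was chosen with earlier results of these data known. Whether the sterol genes as a set differ from other genes was not tested.

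**Figure D1:**
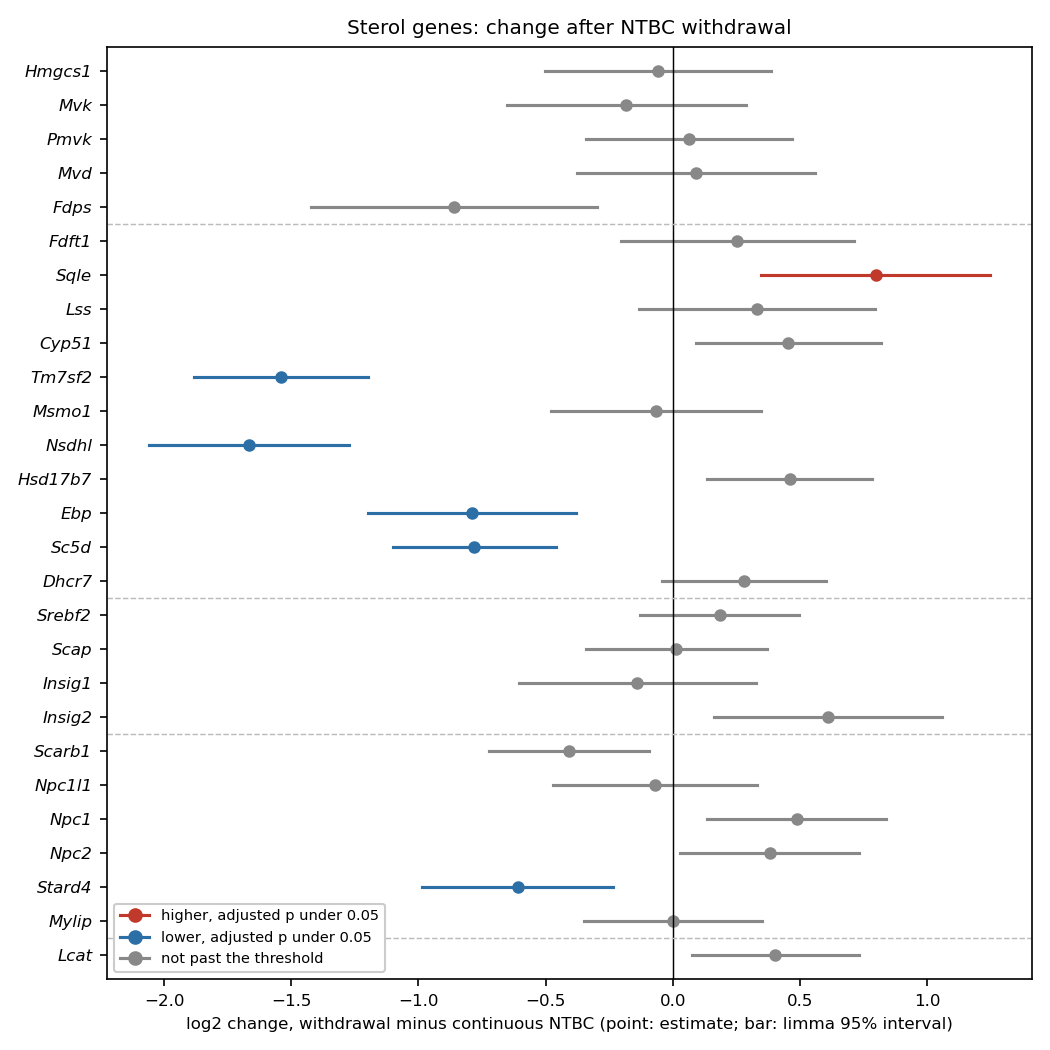
Log2 change (withdrawal minus continuous NTBC) of the 27 measured sterol genes, ordered along the pathway, with dashed lines between the mevalonate, sterol ring, SREBP control, transport and esterification groups. Points are limma estimates and bars 95% intervals. Nsdhl (-1.67) and Tm7sf2 (-1.54) lie farthest to the left, and Sqle (0.80) is the member that passed on the right.

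The 4 synthesis enzymes that passed as lower all act late, after the sterol ring has closed. This depends on the threshold. Fdps, which acts before the ring, had a change of -0.86 that narrowly missed it (limma adjusted p = 0.0621). Nsdhl encodes the dehydrogenase that removes a carboxyl group during sterol demethylation. Its signals were 7.98, 8.29 and 8.19 after withdrawal, against 9.92, 10.03 and 9.51 on continuous NTBC. Every withdrawal array was well below every continuous array, and the mean was 3.17-fold lower (log2 change -1.67, SE 0.18, adjusted p = 3.2e-04). Tm7sf2, a sterol reductase of the endoplasmic reticulum, read 7.73, 7.93 and 7.65 after withdrawal, against 9.48, 9.25 and 9.20 on continuous NTBC. Here too the groups were far apart, with a 2.91-fold lower mean (-1.54, SE 0.15, adjusted p = 2.26e-04).

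The other two falls were smaller. Sc5d, the desaturase that acts on the B ring of the sterol, had signals of 10.48, 10.60 and 10.41 after withdrawal, against 11.39, 11.25 and 11.19 on continuous NTBC. The groups did not overlap, and replicates lay close together (1.72-fold lower, -0.78, SE 0.14, adjusted p = 0.00767). Ebp, the sterol isomerase that binds emopamil, read 9.27, 9.50 and 8.93 after withdrawal, against 10.21, 10.04 and 9.82 on continuous NTBC. Its groups were also separate, but the withdrawal arrays were spread over 0.57 log2 units (1.73-fold lower, -0.79, SE 0.18, adjusted p = 0.0237). Nsdhl, Tm7sf2 and Sc5d passed under all 14 other fits tried. Ebp passed in 9 of the 14 and in 2 of the 6 that left out an array (highest adjusted p = 0.0857, with the change between -0.92 and -0.64).

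These falls were interleaved with steps that did not pass as lower. Msmo1, Nsdhl and Hsd17b7 encode enzymes that work in sequence to strip methyl groups from the ring. Msmo1, the oxidase of this sequence, had a change of -0.07 with a 95% interval of -0.48 to 0.35. For Nsdhl the interval was -2.06 to -1.27, and for Hsd17b7, the ketoreductase, it was 0.14 to 0.78. Hsd17b7 read 8.46, 8.43 and 8.37 after withdrawal, against 8.03, 8.06 and 7.79 on continuous NTBC. All withdrawal arrays were above all continuous ones, but the change of 0.46 did not pass (SE 0.15, adjusted p = 0.0814). Msmo1 read 9.23, 9.36 and 9.43 after withdrawal, against 9.51, 9.68 and 9.03 on continuous NTBC, and its groups overlapped. Dhcr7, the reductase that finishes cholesterol in one branch, had a change of 0.28 (SE 0.15, adjusted p = 0.281), with separate groups.

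Promoter sequences are shown for the 4 late enzymes that fell, picked by their calls in these data, and for Hmgcs1, which did not pass. They are RefSeq sequences on GRCm38.p6, 5′ to 3′ on the strand of the gene, from 250 bases before the annotated start to 50 bases from it. Capitals mark matches on either strand to TCACNCCAC, the site bound by SREBP, to CCAAT, bound by NF-Y, and to GGGCGG, bound by SP1. NF-Y and SP1 are the usual partners of SREBP at sterol genes.
Nsdhl (chrX:72918271-72918570, plus strand): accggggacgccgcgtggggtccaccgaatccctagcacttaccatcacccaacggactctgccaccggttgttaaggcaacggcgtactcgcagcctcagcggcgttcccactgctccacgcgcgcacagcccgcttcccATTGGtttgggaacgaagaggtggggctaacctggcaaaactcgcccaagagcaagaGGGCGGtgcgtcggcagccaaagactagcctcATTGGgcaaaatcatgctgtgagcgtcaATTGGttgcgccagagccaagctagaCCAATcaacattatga
Tm7sf2 (chr19:6067801-6068100, minus strand): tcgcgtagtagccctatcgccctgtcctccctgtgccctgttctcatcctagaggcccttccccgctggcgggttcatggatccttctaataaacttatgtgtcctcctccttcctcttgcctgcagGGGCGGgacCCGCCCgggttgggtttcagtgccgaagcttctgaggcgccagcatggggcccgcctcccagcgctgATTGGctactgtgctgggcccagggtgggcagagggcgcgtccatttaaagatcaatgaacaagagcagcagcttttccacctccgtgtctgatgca
Ebp (chrX:8193463-8193762, minus strand): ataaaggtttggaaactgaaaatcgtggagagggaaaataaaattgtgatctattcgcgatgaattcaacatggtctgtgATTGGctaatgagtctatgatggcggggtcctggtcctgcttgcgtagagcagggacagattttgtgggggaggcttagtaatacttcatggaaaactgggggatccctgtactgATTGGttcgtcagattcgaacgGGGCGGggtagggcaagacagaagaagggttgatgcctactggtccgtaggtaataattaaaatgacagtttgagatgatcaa
Sc5d (chr9:42264251-42264550, minus strand): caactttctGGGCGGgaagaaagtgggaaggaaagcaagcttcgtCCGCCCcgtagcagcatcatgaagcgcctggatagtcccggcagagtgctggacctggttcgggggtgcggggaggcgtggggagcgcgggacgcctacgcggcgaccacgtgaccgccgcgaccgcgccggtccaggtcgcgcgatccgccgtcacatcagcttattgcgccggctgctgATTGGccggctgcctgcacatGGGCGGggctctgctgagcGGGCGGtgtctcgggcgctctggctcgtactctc
Hmgcs1 (chr13:119690101-119690400, plus strand): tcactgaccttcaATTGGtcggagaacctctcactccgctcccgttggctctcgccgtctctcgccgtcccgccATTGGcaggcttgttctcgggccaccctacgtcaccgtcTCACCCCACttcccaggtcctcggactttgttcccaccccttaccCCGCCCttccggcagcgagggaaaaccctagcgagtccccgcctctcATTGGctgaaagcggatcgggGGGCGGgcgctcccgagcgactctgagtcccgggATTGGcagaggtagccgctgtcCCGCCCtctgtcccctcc

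Of the 31 listed genes 24 had such a window, in 30 windows in all, and no matches of different motifs overlapped in them. Sqle, Stard4 and Fdps were among the genes without a window. CCAAT was found in 22 of the 24 genes, where 41.6% of the 16990 array genes with a window held it. GGGCGG was found in 21 of the 24, where 49.5% of those array genes held it. The 24 include genes that were not measured here. Of the 21 measured genes with a window, 20 held CCAAT and 18 held GGGCGG. Among 13 measured synthesis genes with a window, both motifs were present in all 4 that fell and in 8 of the 9 that did not pass. The exact SREBP letters occurred in the window of Hmgcs1 only (1 of 24 genes, against 1.43% of array genes), as TCACCCCAC starting 137 bases before the start. Hmgcs1 therefore does not stand for the other genes that did not pass. SREBP sites vary in sequence, and a window without these letters says nothing about binding. A gene with several windows counts when any of them holds the motif.

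Squalene and the closing of the ring precede the steps that fell. Sqle, squalene epoxidase, which sets the pace of the sterol branch, was the single member that rose. Its signals were 9.59, 9.92 and 9.74 after withdrawal, against 8.90, 9.36 and 8.60 on continuous NTBC. Every withdrawal array was above every continuous array, and the mean was 1.74-fold higher (0.80, SE 0.20, adjusted p = 0.0345). Of the 6 fits that left out an array, Sqle passed in 1, the one without continuous replicate 2, and the change ranged from 0.62 to 1.0 over all 14 other fits. With quantile normalization its adjusted p was 0.0827.

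Its neighbours had smaller values that did not pass. Cyp51, the lanosterol demethylase, read 10.07, 10.25 and 10.36 after withdrawal, against 9.61, 10.01 and 9.70 on continuous NTBC. All 3 withdrawal arrays were higher, with a change of 0.45 (SE 0.16, adjusted p = 0.122). Lss, which closes the ring to lanosterol, had a change of 0.33 (SE 0.21), and Fdft1, which joins farnesyl units to squalene, of 0.25 (SE 0.21). In both, the groups overlapped.

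Among the mevalonate enzymes 0 of 5 passed limma's threshold, where 11.0% of all genes did, and 1 had an unadjusted p under 0.05. That gene was Fdps, which makes farnesyl diphosphate, with signals of 8.58, 8.90 and 8.50 after withdrawal, against 9.50, 10.08 and 8.98 on continuous NTBC. The groups were separate by a narrow margin, and the change was -0.86 (SE 0.25, adjusted p = 0.0621). Fdps passed in 8 of the 14 other limma fits, and in 1 of the 6 that left out an array (highest adjusted p = 0.191). The other 4 mevalonate genes overlapped between the groups. Hmgcs1, the cytosolic HMG-CoA synthase that feeds the pathway, read 10.47, 10.44 and 10.40 after withdrawal, against 10.52, 10.89 and 10.08 on continuous NTBC. Its mean barely differed (-0.06, 95% interval -0.50 to 0.38), while the continuous arrays lay on both sides of the withdrawal arrays. Mvk, mevalonate kinase, had a change of -0.18 (interval -0.65 to 0.29). Pmvk, the next kinase, had 0.06 (-0.34 to 0.47). Mvd, the decarboxylase, had 0.09 (-0.38 to 0.56). Each interval spans 0 and is wide, so equal levels are not shown.

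**Figure D2:**
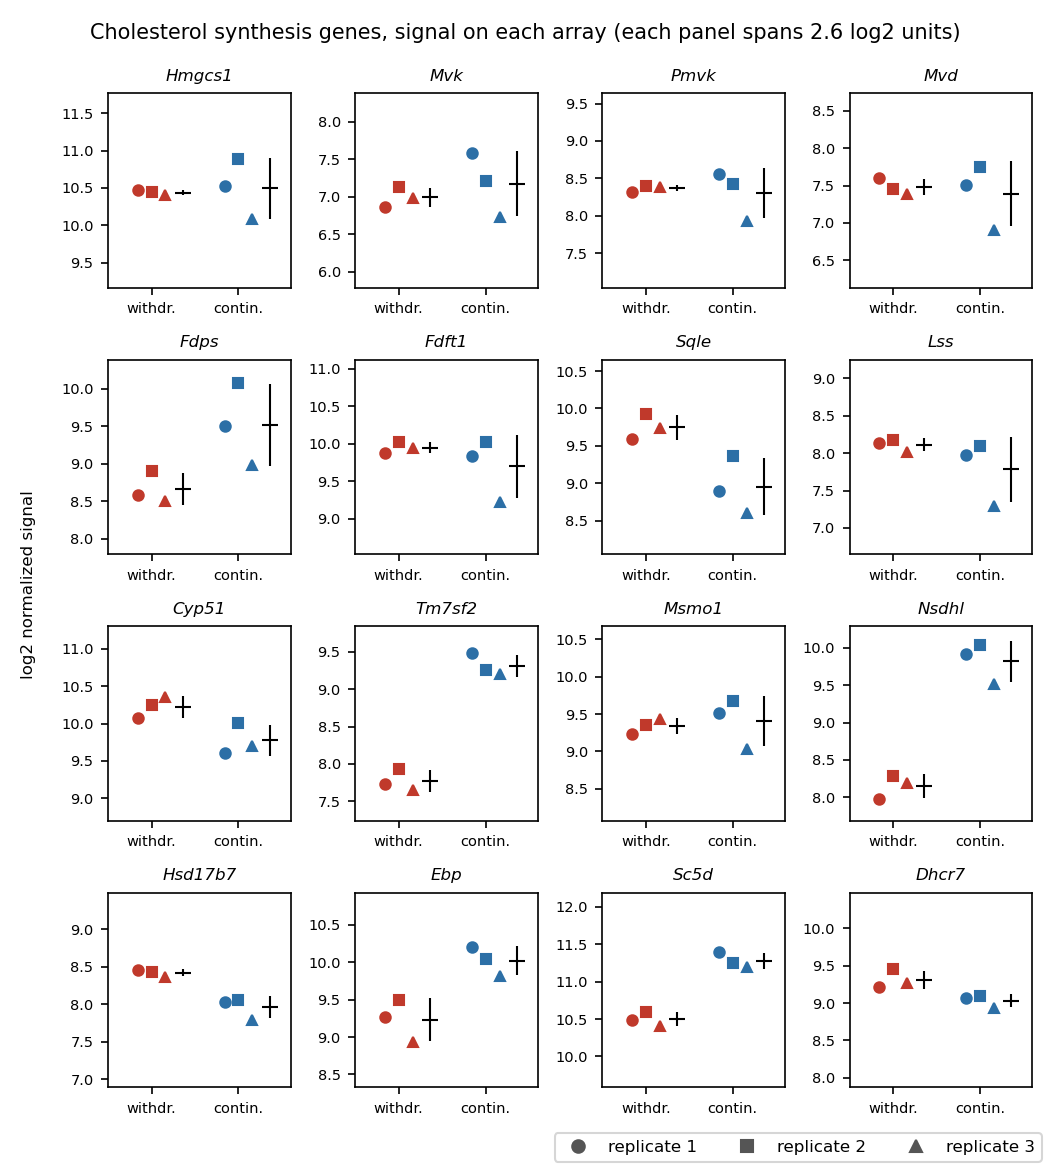
Log2 normalized signal of the 16 measured cholesterol synthesis genes on each array, withdrawal at the left and continuous NTBC at the right of each panel, with symbols for replicates 1 to 3 and the mean ± SD (n = 3) in black. The triangle of continuous replicate 3 is the lowest of its group in 15 of the 16 panels.

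A second pattern lay within the continuous group. Its replicate 3 gave the lowest signal of its group for 15 of the 16 measured synthesis genes, all but Cyp51, whereas it was the lowest, ties included, for 29.0% of all genes. In both groups replicate 2 gave the highest signal for 11 of the 16, where it was the highest or tied for 34.8% of all genes after withdrawal and 31.1% on continuous NTBC. The median deviation of the 16 genes from their group mean was -0.06, 0.09 and -0.04 on the withdrawal arrays, in the order of their numbers, and 0.11, 0.22 and -0.37 on the continuous arrays. Over all genes these medians lay between -0.01 and 0.01, and the array median of continuous replicate 3 was 5.43, near the 5.44 of replicate 2. On that array all 16 synthesis genes lay below the mean of the continuous group.

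For most of these genes the spread among the arrays was larger on continuous NTBC, where replicate 3 was the lowest for 15 of the 16. Genes that share 1 low array are not separate observations, and each SD rests on 3 arrays. The median SD of the 16 genes was 0.11 after withdrawal and 0.33 on continuous NTBC, where all genes had 0.16 and 0.20. The SD was larger on continuous NTBC for 14 of the 16, against 61.2% of all genes. The withdrawal arrays of Fdps spanned 0.40 log2 units and the continuous ones 1.10. For Mvk these ranges were 0.26 after withdrawal and 0.86 on continuous NTBC. Of the 4 late enzymes that fell, Ebp spanned 0.57 after withdrawal and 0.39 on continuous NTBC. Nsdhl spanned 0.31 after withdrawal and 0.52 on continuous NTBC. The ranges were 0.19 after withdrawal and 0.20 on continuous NTBC for Sc5d, and 0.28 in both groups for Tm7sf2. Whether the groups differ in spread was not tested. Outside synthesis, 5 of the 11 members, Insig1, Stard4, Srebf2, Npc1 and Npc2, were lowest on continuous replicate 3 within their group. The other 6 members, Scap, Insig2, Scarb1, Npc1l1, Mylip and Lcat, were lowest on continuous replicate 2.

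Calls near the threshold changed without continuous replicate 3, as they did without each of the other arrays. Without continuous replicate 3, 6 members were lower and Sqle no longer passed. The change of Fdps was then -1.13 (adjusted p = 0.0143) and that of Sqle 0.62 (adjusted p = 0.103). Nsdhl (-1.82, adjusted p = 3.49e-04), Tm7sf2 (-1.60), Sc5d (-0.82), Ebp (-0.89) and Stard4 (-0.77) passed without it. The changes of Pmvk and Mvd were then -0.13 and -0.15.

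**Figure D3:**
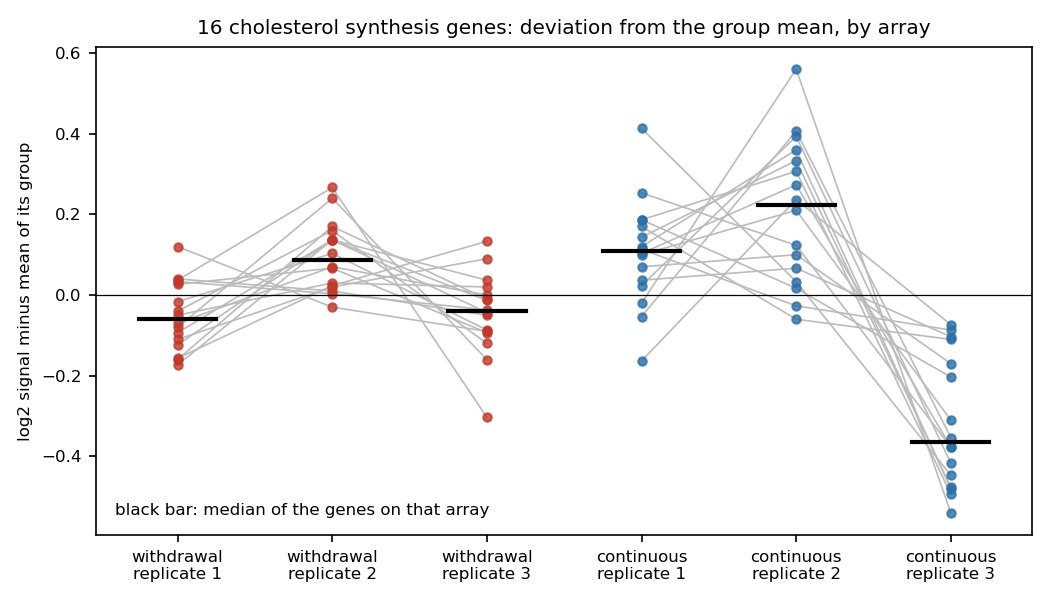
Log2 signal minus the mean of its own group for the 16 measured synthesis genes, one column of points per array, with grey lines joining a gene within its group and black bars at the median. On continuous replicate 3 every point is below 0 (median -0.37), while on the withdrawal arrays the medians stay between -0.06 and 0.09.

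In the control of SREBP, 0 of 4 genes passed limma's threshold (11.0% of all genes did), with 1 at an unadjusted p under 0.05. Srebf2, the gene of SREBP2, which induces its own transcript, read 8.43, 8.47 and 8.53 after withdrawal, against 8.38, 8.32 and 8.18 on continuous NTBC. The arrays did not overlap, but the change was small at 0.18 (interval -0.13 to 0.50, adjusted p = 0.473). With quantile normalization it was -3e-04. Scap, the escort of SREBP, had a change of 0.01 (interval -0.34 to 0.37) on the brighter of its probe sets and 0.08 on the dimmer one.

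The INSIG genes gave different values. Insig1, a direct SREBP target in liver, read 11.00, 11.15 and 10.66 after withdrawal, against 11.46, 11.04 and 10.73 on continuous NTBC. The groups overlapped, with a change of -0.14 (interval -0.61 to 0.33, adjusted p = 0.732). Insig2, which unlike Insig1 is not an SREBP target and whose liver transcript rises in fasting, read 9.85, 9.77 and 9.15 after withdrawal, against 9.05, 8.80 and 9.09 on continuous NTBC. Withdrawal replicates 1 and 2 stood clearly above the continuous arrays, and replicate 3 only just. The change of 0.61 did not pass (SE 0.20, limma adjusted p = 0.0924). Insig2 passed in 2 of the 14 other fits and in 1 of the 6 that left out an array. That was the fit without withdrawal replicate 3, where the change was 0.83 (adjusted p = 0.0219). Without withdrawal replicate 1 the change was 0.48 (adjusted p = 0.334).

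Of the 6 uptake and transport genes 1 fell and 5 did not pass, where 3.39% of all genes were lower and 7.58% higher. Stard4, a soluble carrier that shuttles cholesterol between membranes and is an SREBP target, read 8.19, 8.19 and 8.17 after withdrawal, against 8.98, 8.93 and 8.47 on continuous NTBC. The withdrawal arrays were nearly identical and all lower (1.53-fold, -0.61, SE 0.17, adjusted p = 0.0494). It sat just inside the threshold and passed in 7 of 14 other fits. Of those that left out an array it passed in 1 of 6, the one without continuous replicate 3. Scarb1, the hepatic receptor that takes up cholesterol esters from HDL, read 9.25, 9.11 and 9.13 after withdrawal, against 9.65, 9.47 and 9.59 on continuous NTBC. Its groups were separate, with a change of -0.41 that did not pass (SE 0.14, limma adjusted p = 0.109). Of the 14 other fits Scarb1 passed in 1, with quantile normalization (-0.54, adjusted p = 0.0281). With median centring the change was -0.31 (adjusted p = 0.333).

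The lysosomal exporters had values on the other side of 0. Npc1, the membrane protein of the pair, read 9.57, 9.65 and 9.36 after withdrawal, against 9.22, 9.02 and 8.88 on continuous NTBC. Npc2, the soluble partner that hands cholesterol to it, read 9.38, 9.48 and 9.13 after withdrawal, against 9.06, 9.00 and 8.79 on continuous NTBC. In both genes all withdrawal arrays were above all continuous ones, and neither passed. The changes were 0.49 for Npc1 (SE 0.16, adjusted p = 0.0875) and 0.38 for Npc2 (SE 0.16, adjusted p = 0.179). Npc1 passed in 2 of the 14 other limma fits, array weights among them (adjusted p = 0.0274), and in 0 of the 6 that left out an array. The second probe set of Npc1, with means of 4.60 and 4.41, had a change of 0.19. Npc1l1, which absorbs sterol in the gut and is scarce in mouse liver, had signals of 5.30 to 5.83 over the 6 arrays and a change of -0.07. Mylip, the ubiquitin ligase that degrades lipoprotein receptors and is an LXR target, had means of 7.16 in both groups (interval -0.35 to 0.35).

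Lcat, the secreted enzyme that esterifies cholesterol on lipoproteins, was the esterification gene measured. It read 11.00, 11.09 and 11.09 after withdrawal, against 10.73, 10.47 and 10.77 on continuous NTBC. All withdrawal arrays were higher, with a change of 0.40 that did not pass (SE 0.15, adjusted p = 0.129). In all, groups were separate for 16 of the 27 genes, 9 higher and 7 lower after withdrawal (59.3%), where 30.5% of all genes were separate, 17.1% higher and 13.4% lower, and 27.6% of all probe sets.

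**Figure D4:**
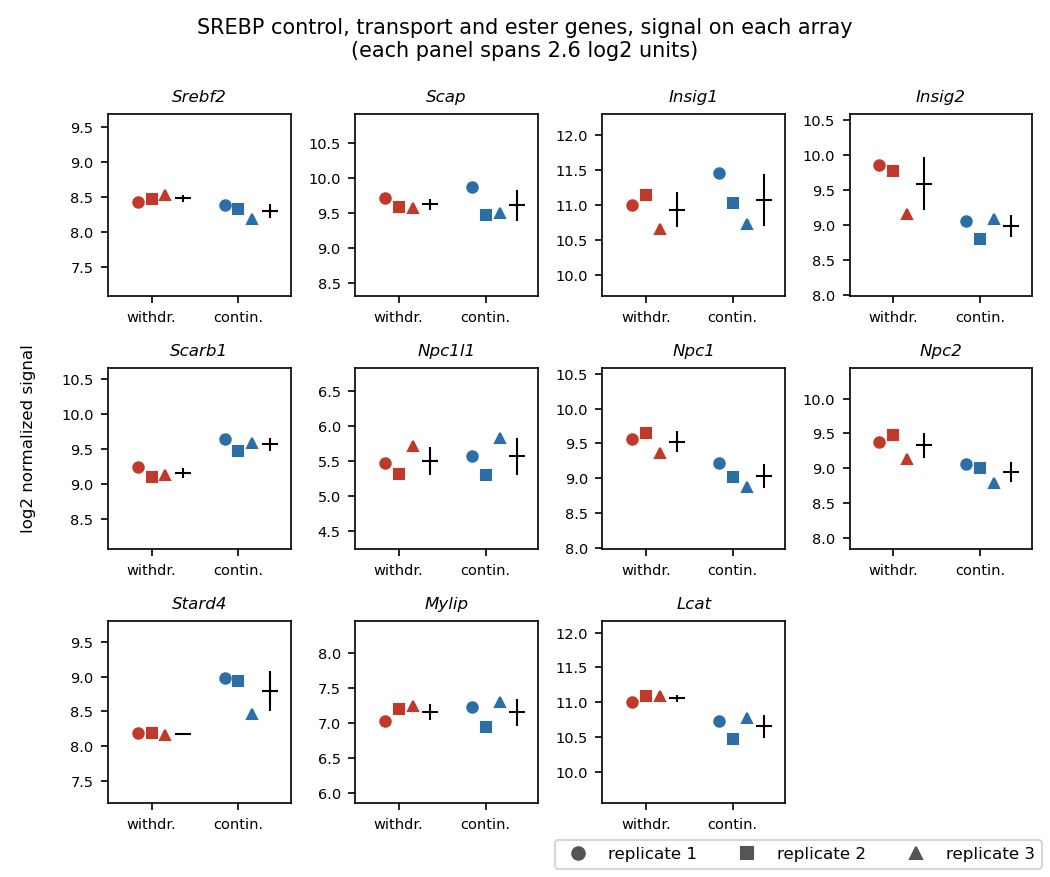
Log2 normalized signal of the 11 measured genes of SREBP control, sterol transport and esterification on each array, withdrawal left and continuous NTBC right, with the mean ± SD (n = 3) in black. Stard4 is lower on all withdrawal arrays (8.17 to 8.19) than on the continuous ones (8.47 to 8.98), and Npc1, Npc2 and Lcat are higher without passing the threshold.

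Of 36 further genes of sterol handling, 29 were measured, of which 4 fell, 2 rose and 23 did not pass. That is 13.8% lower and 6.90% higher, beside 3.39% lower and 7.58% higher among all genes. This list too was chosen with earlier results of these data known, and the difference in shares was not tested. Lipa, the lysosomal acid lipase that frees cholesterol from lipoprotein esters, read 11.80, 11.78 and 11.73 after withdrawal, against 10.62, 10.51 and 10.79 on continuous NTBC. The groups were far apart (1.13, SE 0.14, adjusted p = 9.94e-04). Tmem97, which binds sterol and NPC1, also rose (0.63, SE 0.15, adjusted p = 0.0246), and passed in 3 of the 6 fits that left out an array (highest adjusted p = 0.131). It did not pass without withdrawal replicate 1, withdrawal replicate 2 or continuous replicate 3, nor with quantile normalization (0.50, adjusted p = 0.0553). Lipa passed in all 14 other fits.

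Among the further genes that fell, Lrp1, a large endocytic receptor for lipoprotein remnants, read 9.56, 9.59 and 9.34 after withdrawal, against 10.79, 10.55 and 10.57 on continuous NTBC. Its change was -1.14 (SE 0.15, adjusted p = 0.00122). Srebf1, the gene of the SREBP that drives fatty acid synthesis, read 7.36, 7.50 and 7.25 after withdrawal, against 8.82, 8.22 and 8.27 on continuous NTBC. Every withdrawal array was lower (-1.07, SE 0.19, adjusted p = 0.00565), while Srebf2 above had a change of 0.18. Cyp27a1, which makes an oxysterol and starts a bile acid route, fell by 1.05 (SE 0.14, adjusted p = 0.00137). Acss2, the cytosolic acetyl-CoA synthetase, fell by 0.85 (SE 0.16, adjusted p = 0.00883; 0.0563 without withdrawal replicate 1).

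Of the efflux genes 0 of 5 passed limma's threshold (11.0% of all genes did), and 1 had an unadjusted p under 0.05. That was Abca1, the exporter that loads cholesterol onto HDL, with 10.25, 10.22 and 10.11 after withdrawal, against 9.94, 9.44 and 9.75 on continuous NTBC (0.48, SE 0.17, adjusted p = 0.102). The changes of the 5 ranged from -0.02 to 0.48.

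**Figure D5:**
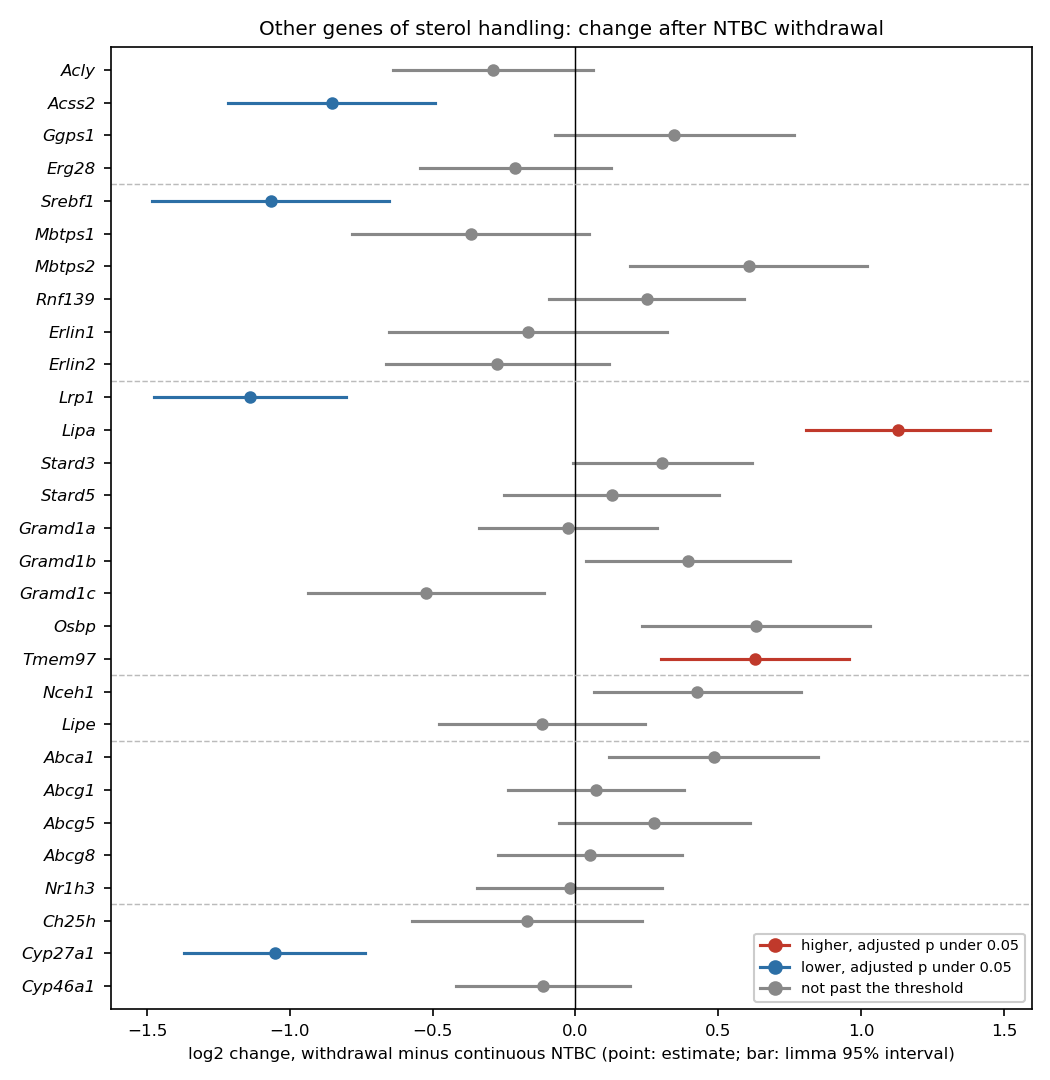
Log2 change (withdrawal minus continuous NTBC) of the 29 measured further genes of sterol handling, as limma estimates with 95% intervals. Lipa (1.13) and Tmem97 (0.63) passed as higher, and Lrp1 (-1.14), Srebf1 (-1.07), Cyp27a1 (-1.05) and Acss2 (-0.85) as lower.

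Whole liver holds several cell types, and fewer cells of a type cannot be told apart from less RNA per cell. The marker lists are short, and 11.0% of all genes passed limma's threshold. Of 5 measured hepatocyte markers, Alb among them, 0 passed limma's threshold or an unadjusted p of 0.05, and their summed linear signal was 60384 to 67881 after withdrawal and 63783 to 66306 on continuous NTBC. Of 11 macrophage markers 0 passed (1 at an unadjusted p under 0.05), with sums of 1247 to 1824 after withdrawal and 1307 to 1582 on continuous NTBC. Of 7 sinusoidal endothelial markers 2 rose, Lyve1 and Clec4g, 6 had separate groups and the median change was 0.41. Those 6 were all higher after withdrawal. Among all genes, 7.58% rose and 30.5% had separate groups, 17.1% higher after withdrawal. The sums of the endothelial markers, 1969 to 2090 after withdrawal, lay above the 1242 to 1530 on continuous NTBC. Of 6 stellate, 4 bile duct and 3 leukocyte markers 0 passed limma's threshold (1 of each list at an unadjusted p under 0.05), and their sums overlapped between the groups. The part of these cells in the sterol values was not tested. Fah itself had signals of 7.66 ± 0.23 after withdrawal and 7.82 ± 0.42 on continuous NTBC (SD, n = 3 each). Hpd, the gene of the enzyme that NTBC inhibits, had 12.02 ± 0.06 after withdrawal and 12.66 ± 0.14 on continuous NTBC (-0.64, SE 0.15, adjusted p = 0.021).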

How the data were processed

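RNA of 6 liver samples was hybridised to Affymetrix whole-transcript arrays from 100 ng of total RNA, per the labels' protocols. The authors deposited normalized intensities on a linear scale, one for each probe set on each array, made with Transcriptome Analysis Console per the submitters' processing notes. Its version, background correction and normalization are not given in the sources used here. Every deposited value equals 2 raised to an exponent of 2 decimals once that power is rounded to 2 decimals, so the log2 values used here carry the deposited rounding. There are no detection flags, and depth does not apply: the number of arrays limits the precision.

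Using limma 3.58.1 (R 4.3.3), lmFit and eBayes were run on log2 intensities of every probe set, with no low-signal filter, as withdrawal minus continuous, two-sided, with Benjamini-Hochberg adjustment over 34472 probe sets. Symbols came from the platform annotation, and probe sets with several were not named. Promoters are RefSeq's. The fit was tested on simulated data. The members and lists were chosen with earlier results of these data known. Every member is named. Of the further sterol genes, those past the threshold were to be named, with a few fixed ones, of which Srebf1 and Abca1 were measured. Replicate numbers were not taken as pairs. Alternatives were quantile normalization, median centring, the replicate number as a block, leaving out dim probe sets, array weights, probe sets with 1 symbol, trend and robust priors, each array left out, averaging all probe sets of a gene, a 2-fold limit, and low signals raised to the array's lower quartile.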

Additional observations from a re-analysis of the deposited data

How the results depend on the processing

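Of the 27 sterol genes, 3 passed under every fit, 15 under none, and 6 that had not passed did so under some alternative. The count of higher members was 0 with quantile normalization or at least a 2-fold change, 4 with array weights and 3 with trend and robust, and 0 to 1 with an array left out (3 to 6 at an unadjusted p under 0.05 in limma). The count of lower members was 3 with median centring, 2 at 2-fold and 3 to 6 with an array left out. Further sterol genes higher numbered 6 with array weights, 1 at 2-fold and 1 to 4 with an array left out. Over all probe sets, 3339 were higher and 2249 lower with array weights, 748 and 430 at 2-fold, and 935 to 2629 and 519 to 1581 with an array left out. Median centring gave 708 lower. The share of calls that were higher was 66.0%, but 77.2% with median centring, where the median change of all probe sets was 0.02 rather than -0.08, and 58.3% with quantile normalization.

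With the replicate block, 1 member was higher and 5 lower, as without it, with Fdps passing (adjusted p = 0.0176) in place of Stard4. Probe sets higher and lower then numbered 2130 and 1168. The deviations of same-numbered arrays from their group means correlated at 0.16, -0.12 and 0.22. For differently numbered arrays of the 2 groups the correlations lay between -0.36 and 0.25, so the numbers were not taken as pairs.

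At 2 decimals, the sign changed under some alternative for 8 members, none of which had passed, and Srebf2 was at -3e-04 with quantile normalization. Mylip, with a change of 0 in the reported fit, is not among the 8. Its change was -0.137 with quantile normalization and 0.1 with median centring. With quantile normalization the changes were -0.13 for Pmvk, -0.0811 for Mvd, -0.0803 for Scap and 0.0195 for Npc1l1. With median centring they were 0.04 for Hmgcs1, 0.0333 for Msmo1 and 0.03 for Npc1l1. With an array left out they ranged from -0.27 to 0.14 for Hmgcs1, -0.41 to 0.0233 for Mvk, -0.13 to 0.19 for Pmvk, -0.15 to 0.27 for Mvd, -0.255 to 0.07 for Msmo1, -0.0583 to 0.14 for Scap, -0.31 to 0.0517 for Insig1 and -0.20 to 0.0617 for Npc1l1. The causes were not tested. No member lay below the lower quartile of any array, so raising low signals moved no value.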
